A study of Mus musculus with 6 samples.

Results

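The 33 astrocyte genes described here are known markers of astrocyte identity, transport and metabolism, and were taken by symbol from a table of 51912 mouse genes. All 33 were found and all 33 were abundant enough to be tested. The tissue was hippocampus from mice of 2 inbred strains, DBA/2 and C57BL/6, with 3 RNA-seq libraries per strain and no treatment. The labels give no sex, age or substrain and do not say whether a library came from 1 animal or from a pool, so the p-values below speak of the variation among these 6 libraries, some of which may be technical. The series was set up to find genes whose level differs between the strains.

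Astrocytes are glial cells that clear glutamate and potassium from around synapses, pass metabolites and ions to each other through gap junctions, and wrap blood vessels with endfeet rich in water channels. In the hippocampus they are known for limiting glutamate spill-over, storing glycogen, making apolipoproteins, and converting thyroid hormone into its active form for neighbouring neurons. Intermediate filaments are part of their skeleton and increase in astrocytes that react to injury.

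In DBA/2 hippocampus 15 of the 33 genes (45.5%) were lower and 3 (9.09%) were higher than in C57BL/6, and 15 did not pass the test. Over all 17517 genes tested, 22.8% differed, 13.7% lower and 9.09% higher in DBA/2. A gene is called lower or higher where the quasi-likelihood test of edgeR gave a p under 0.05 after Benjamini-Hochberg adjustment. Among the 7739 genes at least as abundant as the least abundant astrocyte gene, 26.2% differed, 14.3% lower and 11.9% higher. The share of astrocyte genes that fell was above the background of all genes, whereas the share that rose equalled it. The 33 genes were chosen with earlier results of these data known, so this comparison is a description and not independent support. The largest falls were in Ntsr2, F3 and Gfap, and the rises were in Slco1c1, Slc1a2 and Fgfr3. All differences were moderate, with log2 fold changes of DBA/2 over C57BL/6 from -0.74 to 0.36. None reached 1, and the median was -0.13, against 0.00 over all genes tested. Called astrocyte genes had a median absolute log2 fold change of 0.34, against 0.47 over all called genes.

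For 21 of the 33 genes (63.6%) every DBA/2 library lay on the same side of every C57BL/6 library, against 36.8% of all tested genes. Of these 21, 17 were lower in DBA/2 (against 20.1% of all tested genes) and 4 were higher. In bulk tissue, fewer astrocytes and less RNA per astrocyte cannot be told apart. In 17 alternative fits (other scalings, filters, tools and models, and libraries left out), 10 genes kept their call throughout, 8 lower (Ntsr2, F3, Gfap, Gjb6, Ppp1r3c, Ndrg2, S100b and Aldoc) and 2 higher (Slc1a2 and Slco1c1). C57BL/6 replicates 1 and 3 held Xist, the X-inactivation transcript, at 193 and 349 CPM (counts after scaling every library to the same total), and the other 4 libraries were below 1 CPM. Without those C57BL/6 libraries, which leaves 1 library of that strain, 9 genes were called lower and 2 higher, with all the spread taken from the DBA/2 libraries and the lone C57BL/6 library assumed to vary like them.

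**Figure D1:**
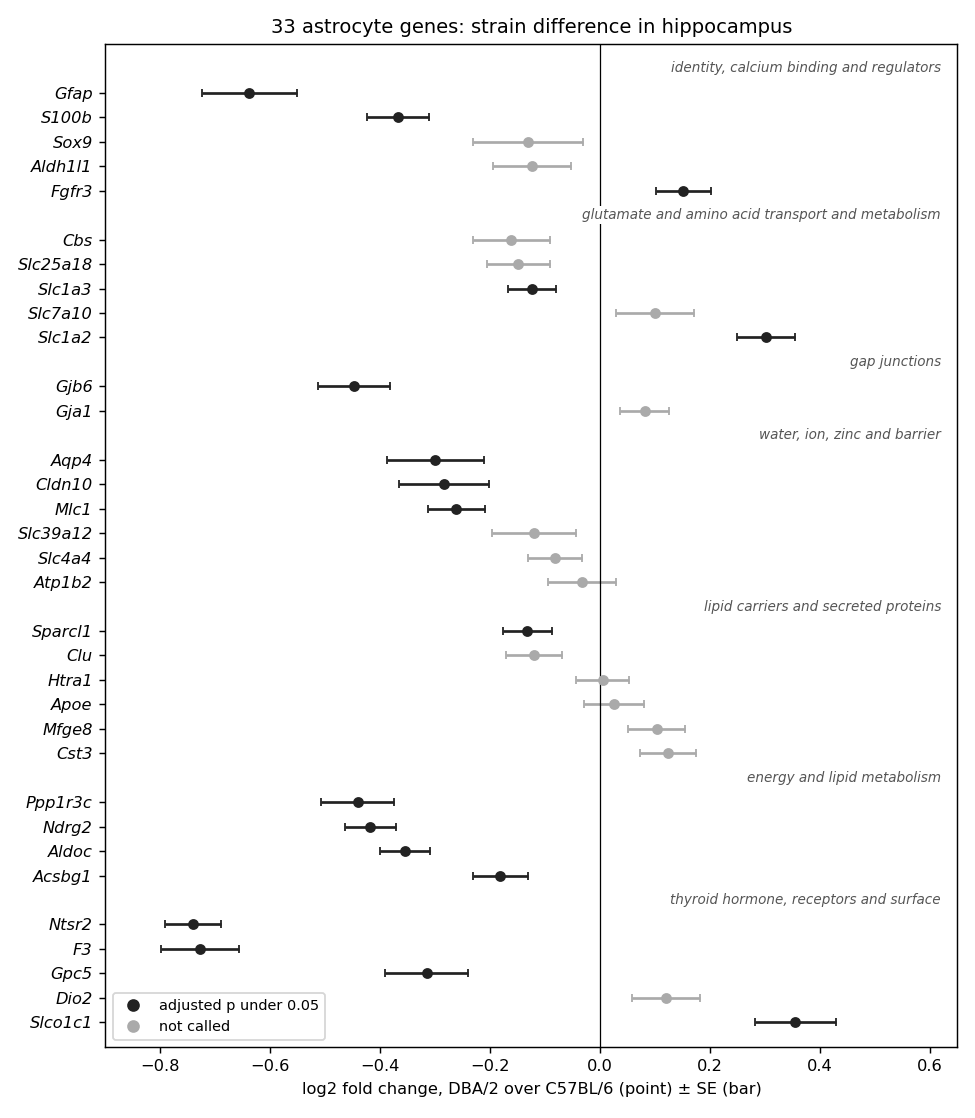
Log2 fold change of DBA/2 over C57BL/6 for each of the 33 astrocyte genes, grouped by role, as a point with its standard error as a bar. Black points are the 18 called genes and grey points the 15 not called. All 4 genes of energy and lipid metabolism lie to the left of 0, with values from -0.44 to -0.18.

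The DNA around the annotated start of the genes with the strongest changes, 3 that fell and 2 that rose, is shown because their levels differed in every alternative fit and the start region is where transcription begins. Each sequence is the RefSeq entry of build GRCm38.p6, 250 bases before to 50 bases after the start, read 5′ to 3′ on the gene's strand. The reference is C57BL/6J, and DBA/2 sequence was not used here. The regions are chr12:16653220-16653519 for Ntsr2 on the plus strand, chr3:121723287-121723586 for F3 on the plus strand, chr11:102897151-102897450 for Gfap on the minus strand, chr6:141524104-141524403 for Slco1c1 on the plus strand and chr2:102706188-102706487 for Slc1a2 on the plus strand. The Ntsr2, Gfap and Slc1a2 starts lie inside the longer gene spans of the GENCODE annotation. GENCODE begins Slc1a2 at chr2:102658659 and Gfap at chr11:102900912. The whole regions shown for Slc1a2 and Gfap are therefore inside those genes, at internal starts. Capitals mark matches to 4 motifs, each searched on both strands. The STAT motif is TTCNNNGAA, which reads alike on both strands. The E-box is CACGTG, a palindrome. The TATA sequence is TATAAA on one strand and reads TTTATA on the opposite one. The core site of nuclear factor I is TTGGC on one strand and reads GCCAA on the opposite one. No matches overlap in these regions.
Ntsr2: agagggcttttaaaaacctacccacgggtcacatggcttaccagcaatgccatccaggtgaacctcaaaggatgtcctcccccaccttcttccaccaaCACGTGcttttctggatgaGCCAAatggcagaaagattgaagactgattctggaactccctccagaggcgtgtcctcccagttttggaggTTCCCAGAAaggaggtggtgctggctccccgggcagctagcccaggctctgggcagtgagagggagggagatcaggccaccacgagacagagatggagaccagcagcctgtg
F3: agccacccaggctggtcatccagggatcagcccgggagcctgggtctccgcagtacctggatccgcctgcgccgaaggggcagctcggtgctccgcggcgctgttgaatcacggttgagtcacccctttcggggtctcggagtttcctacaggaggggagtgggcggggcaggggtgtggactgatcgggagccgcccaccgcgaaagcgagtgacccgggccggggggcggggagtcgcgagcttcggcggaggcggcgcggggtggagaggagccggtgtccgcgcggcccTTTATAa
Gfap: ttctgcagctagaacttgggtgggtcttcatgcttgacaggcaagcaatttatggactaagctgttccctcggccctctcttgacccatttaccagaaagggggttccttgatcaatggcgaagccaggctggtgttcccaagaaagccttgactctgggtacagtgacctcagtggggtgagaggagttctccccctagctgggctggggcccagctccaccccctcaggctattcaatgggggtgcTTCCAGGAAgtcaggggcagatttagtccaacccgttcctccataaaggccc
Slco1c1: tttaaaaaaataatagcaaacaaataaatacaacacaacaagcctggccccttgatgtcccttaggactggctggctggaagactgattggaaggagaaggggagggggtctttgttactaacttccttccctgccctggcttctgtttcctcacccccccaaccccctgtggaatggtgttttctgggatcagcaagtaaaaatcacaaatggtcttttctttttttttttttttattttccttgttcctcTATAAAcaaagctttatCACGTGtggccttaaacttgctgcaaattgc
Slc1a2: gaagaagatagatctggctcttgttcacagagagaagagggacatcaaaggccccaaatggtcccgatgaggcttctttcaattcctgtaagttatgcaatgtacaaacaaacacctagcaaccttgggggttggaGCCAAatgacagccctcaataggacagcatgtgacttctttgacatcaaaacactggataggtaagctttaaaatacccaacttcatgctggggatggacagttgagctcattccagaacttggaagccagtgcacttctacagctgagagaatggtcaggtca

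The promoter motifs were searched after the levels were known and are described only. Ntsr2 held TTCCCAGAA 62 bases before its start, CACGTG 152 bases before and GCCAA 133 bases before. Counted from the earlier GENCODE start of Ntsr2, the first of these lies inside the gene. Gfap held TTCCAGGAA beginning 2 bases before its start. The matches in F3 and Slco1c1 lie after the RefSeq start, not before it. F3 held TTTATA 43 bases after its start, and Slco1c1 held TATAAA 2 bases after and CACGTG 19 bases after. GENCODE begins Slco1c1 slightly later, at chr6:141524368. Counted from there, TATAAA lies before the start and CACGTG after it. Slc1a2 held GCCAA 114 bases before its start, and no match to the other motifs. Counted from the earlier GENCODE starts of Gfap and Slc1a2, the Gfap and Slc1a2 matches lie inside the genes. Of the 33 genes, 28 had a RefSeq entry, with 36 start regions among 32851 in all. The STAT motif was in 5 of the 36 (13.9%), those of Acsbg1, Aldoc, Gfap, Ntsr2 and Slc1a3, against 8.3% of all start regions. The E-box was in 11.1% against 7.15%, the TATA sequence in 25% against 13.6%, and the nuclear factor I core in 44.4% against 46.7%. A SOX motif, ACAATGG on one strand and reading CCATTGT on the opposite one, was in 0 of the 36 against 3.66% of all, and the full nuclear factor I site in 0 of the 36 against 0.0365%. With 36 regions these shares rest on few matches, and a match is not evidence of binding.

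Beside the counts for each group of members below, 13.7% of all tested genes were lower and 9.09% higher in DBA/2. The strains did not overlap for 36.8% of all tested genes. Among identity genes and regulators, 2 of 5 were lower and 1 was higher in DBA/2. Gfap (ENSMUSG00000020932, chr11:102887336-102900912, minus strand, GRCm38) encodes the intermediate filament protein of astrocytes. It had 233, 208 and 198 CPM in DBA/2 and 373, 308 and 313 CPM in C57BL/6. Every DBA/2 library was below every C57BL/6 library, and the log2 fold change was -0.64 ± 0.09 (SE; edgeR, adjusted p = 0.000594), a fall by 35.7%. S100b, a calcium-binding protein of astrocytes and some oligodendrocyte-lineage cells, had 72.6, 67.3 and 73.3 CPM in DBA/2 and 96.2, 90.8 and 88.1 CPM in C57BL/6. Again the strains did not overlap, with a log2 fold change of -0.37 ± 0.06 (SE; edgeR, adjusted p = 2.87e-05).

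Fgfr3, the fibroblast growth factor receptor carried by astrocytes and their precursors, moved the other way. It had 130.4, 128 and 123 CPM in DBA/2 and 110.4, 119 and 114 CPM in C57BL/6, a log2 fold change of 0.15 ± 0.05 (SE; edgeR, adjusted p = 0.0316). The strains did not overlap, but the call was lost without DBA/2 replicate 1 or 2 or C57BL/6 replicate 1 or 3 (adjusted p up to 0.152). Fgfr3 shares 998 exonic bases with G630022F23Rik on the other strand, which had 97 counts in all DBA/2 libraries and 100 in all C57BL/6 libraries. Sox9, the transcription factor that sets glial fate, averaged 35.2 ± 4.87 CPM in DBA/2 and 38.8 ± 4.18 CPM in C57BL/6 (SD, n = 3 each). Aldh1l1, a folate enzyme used to mark astrocytes throughout the brain, averaged 41.4 ± 2.81 CPM in DBA/2 and 45.3 ± 3.28 CPM in C57BL/6 (SD, n = 3 each). Both overlapped between strains and neither was called, with log2 fold changes of -0.13 ± 0.10 for Sox9 and -0.12 ± 0.07 for Aldh1l1 (SE).

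The 2 astrocyte glutamate transporters went in opposite directions. Slc1a2 (chr2:102658659-102790784, plus strand), which takes up most synaptic glutamate in the forebrain, had 3192, 3635 and 3114 CPM in DBA/2 and 2727, 2708 and 2632 CPM in C57BL/6. It was the astrocyte gene with the highest CPM, and each DBA/2 library exceeded each C57BL/6 library, and the log2 fold change was 0.30 ± 0.05 (SE; edgeR, adjusted p = 0.000125). Slc1a3, the second glutamate transporter, had 566, 605 and 579.9 CPM in DBA/2 and 640.0, 636 and 633 CPM in C57BL/6. Its log2 fold change was -0.12 ± 0.04 (SE; edgeR, adjusted p = 0.0434), with no overlap between strains. That call was lost when any library other than DBA/2 replicate 2 was left out (adjusted p up to 0.169).

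Because a ratio of 2 genes within a library does not depend on how libraries are scaled, it was taken on the deposited FPKM, which divide each count by the gene's exonic length and the library's total. The ratio of Slc1a2 to Slc1a3 was 3.66, 3.9 and 3.49 in DBA/2 and 2.77, 2.77 and 2.7 in C57BL/6. All DBA/2 ratios were above all C57BL/6 ratios (exact permutation test, two-sided p = 0.1, the smallest that 3 against 3 libraries can give). On FPKM, Slc1a2 was higher and Slc1a3 lower in every DBA/2 library than in any C57BL/6 library. The ratio therefore had to separate, and its test adds no support beyond the 2 genes. The mean log2 difference of the ratio was 0.42.

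**Figure D2:**
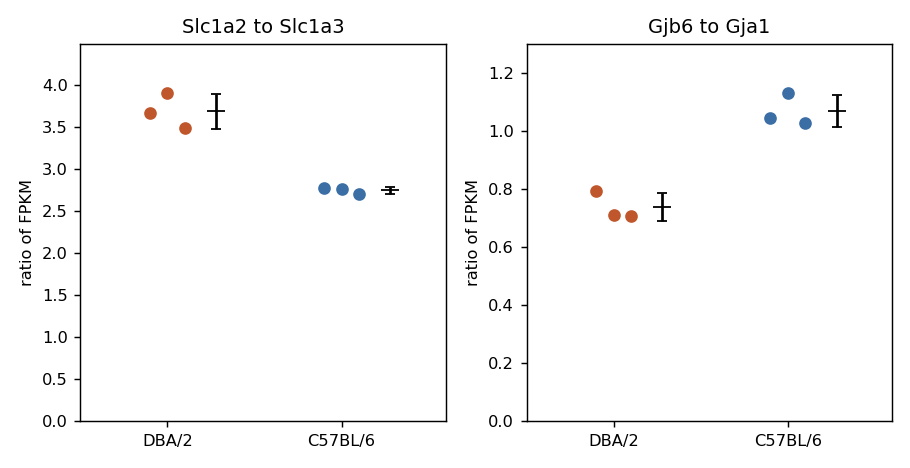
Ratio of FPKM within each library for Slc1a2 to Slc1a3 and for Gjb6 to Gja1, DBA/2 on the left and C57BL/6 on the right of each panel, with points for libraries and bars for the mean and SD. The first ratio is 3.69 ± 0.207 in DBA/2 and 2.75 ± 0.039 in C57BL/6, and the second is 0.736 ± 0.0483 in DBA/2 and 1.07 ± 0.0549 in C57BL/6.

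The other 3 genes of glutamate and amino acid handling did not pass the test. Slc25a18, a mitochondrial glutamate carrier, averaged 54.3 ± 0.0722 CPM in DBA/2 and 60.2 ± 1.6 CPM in C57BL/6 (SD, n = 3 each), with a log2 fold change of -0.15 ± 0.06 (SE). Cbs, an enzyme that makes cystathionine and hydrogen sulfide, averaged 31.5 ± 1.66 CPM in DBA/2 and 35.3 ± 0.66 CPM in C57BL/6 (SD, n = 3 each). For both genes the strains were fully separated, and their adjusted p was 0.0666 for Slc25a18 and 0.105 for Cbs (edgeR). Slc7a10, an exchanger of small neutral amino acids such as glycine and D-serine, averaged 40.9 ± 1.79 CPM in DBA/2 and 38.2 ± 3.16 CPM in C57BL/6 (SD, n = 3 each), with overlap. It shares 377 exonic bases with Lrp3 on the opposite strand, and Slc25a18 shares 32 with Atp6v1e1, so reads there cannot be told apart unless counting used strand.

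Of the 2 connexin genes that form astrocyte gap junctions, only Gjb6 was called. Gjb6 (chr14:57123303-57133611, minus strand) had 46.7, 42.3 and 40.3 CPM in DBA/2 and 59.5, 61.3 and 56.2 CPM in C57BL/6. It fell by 26.7%, with a log2 fold change of -0.45 ± 0.07 (SE; edgeR, adjusted p = 1.31e-05) and no overlap. Gja1, the more widely distributed connexin gene of astrocytes, had 267, 269 and 258 CPM in DBA/2 and 258, 245 and 248 CPM in C57BL/6, just above in DBA/2 but not called (log2 fold change 0.08 ± 0.04, SE). The ratio of Gjb6 to Gja1 on FPKM was 0.792, 0.711 and 0.706 in DBA/2 and 1.04, 1.13 and 1.03 in C57BL/6. On FPKM, Gja1 was thus listed above Gjb6 in each DBA/2 library, and Gjb6 slightly above Gja1 in each C57BL/6 library. That order depends on the exonic lengths used, 10257 bases for Gja1 and 2269 for Gjb6. By CPM, Gja1 was far above Gjb6 in every library of both strains. The mean log2 difference of the ratio was -0.54 (exact permutation test, two-sided p = 0.1, the smallest possible). On FPKM, Gjb6 was lower and Gja1 higher in every DBA/2 library than in any C57BL/6 library. This ratio too had to separate, so its test adds no support beyond the 2 genes.

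Among genes for water, ion, zinc and barrier functions, 3 of 6 were lower in DBA/2. Aqp4, the water channel of the endfeet, had 172, 178 and 168 CPM in DBA/2 and 243, 185 and 209 CPM in C57BL/6. The strains did not overlap, although C57BL/6 replicate 2 lay close to the DBA/2 libraries, and the log2 fold change was -0.30 ± 0.09 (SE; edgeR, adjusted p = 0.04). The call was lost without any 1 of the DBA/2 libraries or without C57BL/6 replicate 3 (adjusted p up to 0.155). Mlc1, an endfoot membrane protein whose loss causes a leukoencephalopathy with cysts in humans, had 145, 145 and 135 CPM in DBA/2 and 181, 164 and 165 CPM in C57BL/6. It was lower in every DBA/2 library, with a log2 fold change of -0.26 ± 0.05 (SE; edgeR, adjusted p = 0.000489).

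Cldn10, a claudin found in astrocytes, had 20.2, 21.1 and 22.4 CPM in DBA/2 and 27.2, 24.8 and 25.4 CPM in C57BL/6, a log2 fold change of -0.28 ± 0.08 (SE; edgeR, adjusted p = 0.0126). It was the least abundant of the 33 by CPM, its strains did not overlap, and its call was lost without DBA/2 replicate 1 or C57BL/6 replicate 1 (adjusted p up to 0.0765). Slc4a4, a sodium bicarbonate cotransporter, Slc39a12, a zinc transporter, and Atp1b2, a sodium pump subunit, were not called, and their libraries overlapped. Atp1b2 averaged 453 ± 33 CPM in DBA/2 and 464 ± 38.1 CPM in C57BL/6 (SD, n = 3 each), and its sign changed in some alternatives. The log2 fold changes were -0.08 ± 0.05 for Slc4a4 and -0.12 ± 0.08 for Slc39a12 (SE).

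All 4 genes of energy and lipid metabolism were called lower in DBA/2, their median log2 fold change was -0.39, and the strains overlapped for none of them. Aldoc (chr11:78322968-78327781, plus strand), the brain aldolase of glycolysis, had 561, 549.5 and 567 CPM in DBA/2 and 730.3, 738 and 677 CPM in C57BL/6. It was one of the most abundant astrocyte transcripts and fell by 21.8% (log2 fold change -0.35 ± 0.05, SE; edgeR, adjusted p = 2.27e-06). Ndrg2, a cytoplasmic protein abundant in mature astrocytes, had 485, 481 and 455 CPM in DBA/2 and 663, 628 and 609 CPM in C57BL/6. It fell by 25.2%, and its log2 fold change was -0.42 ± 0.05 (SE; edgeR, adjusted p = 2.54e-07). Ppp1r3c encodes a phosphatase subunit that binds glycogen and promotes its synthesis. It had 38.7, 40 and 37.1 CPM in DBA/2 and 54.2, 48.4 and 54.6 CPM in C57BL/6, with a log2 fold change of -0.44 ± 0.07 (SE; edgeR, adjusted p = 1.77e-05). Acsbg1, an acyl-CoA synthetase for long fatty acids, had 128, 126 and 132 CPM in DBA/2 and 152, 147 and 139 CPM in C57BL/6. It showed the smallest fall of the 4, with a log2 fold change of -0.18 ± 0.05 (SE; edgeR, adjusted p = 0.00953), and lost its call without C57BL/6 replicate 1 (adjusted p = 0.0791).

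Among lipid carriers and secreted proteins, 1 of 6 was called, as lower. Sparcl1, a matrix protein that promotes excitatory synapse formation, had 1512, 1537 and 1473 CPM in DBA/2 and 1712, 1613 and 1633 CPM in C57BL/6. The strains did not overlap, with a log2 fold change of -0.13 ± 0.04 (SE; edgeR, adjusted p = 0.0329), but the call was lost when any library other than DBA/2 replicate 2 was left out (adjusted p up to 0.195). Apoe, the main apolipoprotein of the brain, had 1400.5, 1266 and 1286 CPM in DBA/2 and 1357, 1348 and 1179 CPM in C57BL/6. Clu, another apolipoprotein and a chaperone, had 815, 760.0 and 731 CPM in DBA/2 and 889, 832 and 787 CPM in C57BL/6. Cst3, a secreted inhibitor of cysteine proteases, had 898, 789 and 875 CPM in DBA/2 and 803, 797 and 752 CPM in C57BL/6. The strains overlapped for all 3, and none of them was called. The call for Clu was gained without DBA/2 replicate 1 or C57BL/6 replicate 3, as lower (lowest adjusted p = 0.0371 in edgeR), and that for Cst3 without DBA/2 replicate 2, as higher (adjusted p = 0.00586). Mfge8, which bridges dying cells to phagocytes, and Htra1, a secreted serine protease, were not called either, with log2 fold changes of 0.10 ± 0.05 and 0.00 ± 0.05 (SE), and the signs of Apoe and Htra1 changed in some alternatives.

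Of the 5 thyroid hormone, receptor and surface genes, 3 were lower and 1 was higher in DBA/2, and this group held the largest falls and the largest rise. Ntsr2 (ENSMUSG00000020591, chr12:16653382-16660227, plus strand), a receptor for the neuropeptide neurotensin that is enriched in astrocytes, had 92.1, 87.5 and 86 CPM in DBA/2 and 149.7, 151 and 144 CPM in C57BL/6. It fell by 40.2%, with a gap between the strains far wider than the spread within either (log2 fold change -0.74 ± 0.05, SE; edgeR, adjusted p = 5.76e-11). F3 (ENSMUSG00000028128, chr3:121723537-121735048, plus strand), tissue factor, starts blood coagulation and is made in the brain mainly by astrocytes. It had 26.7, 28.8 and 25.7 CPM in DBA/2 and 42.6, 46.3 and 45.8 CPM in C57BL/6, a fall by 39.7% (log2 fold change -0.73 ± 0.07, SE; edgeR, adjusted p = 2.7e-08). Gpc5, a heparan sulfate proteoglycan of the cell surface, had 32.5, 38.9 and 34.1 CPM in DBA/2 and 46.3, 44.6 and 40.7 CPM in C57BL/6. Its strains did not overlap, and its log2 fold change was -0.32 ± 0.08 (SE; edgeR, adjusted p = 0.00301).

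Slco1c1 and Dio2 act in series on thyroid hormone: Slco1c1 carries thyroxine into cells and Dio2 converts it to the active hormone. Slco1c1 (chr6:141524368-141570177, plus strand) had 64.1, 69.5 and 60.1 CPM in DBA/2 and 50.4, 44.9 and 55.6 CPM in C57BL/6, an increase of 27.9% without overlap (log2 fold change 0.36 ± 0.07, SE; edgeR, adjusted p = 0.00112). Dio2 had 63.7, 73.2 and 69.4 CPM in DBA/2 and 64.6, 60.4 and 64.6 CPM in C57BL/6. Its strains overlapped and it was not called (log2 fold change 0.12 ± 0.06, SE). Slco1c1 is also made by brain capillary endothelium. The summed level of 12 endothelial and mural markers was 318 to 374 CPM in DBA/2 and 242 to 333 CPM in C57BL/6. Of these, 2 were called higher in DBA/2 (Slco1a4 and Cldn5) and 1 lower (Vwf). The number called higher was 7 without C57BL/6 replicate 3 and 1 without C57BL/6 replicate 2 or any 1 of the DBA/2 libraries. The part of these cells in the Slco1c1 difference was not tested.

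**Figure D3:**
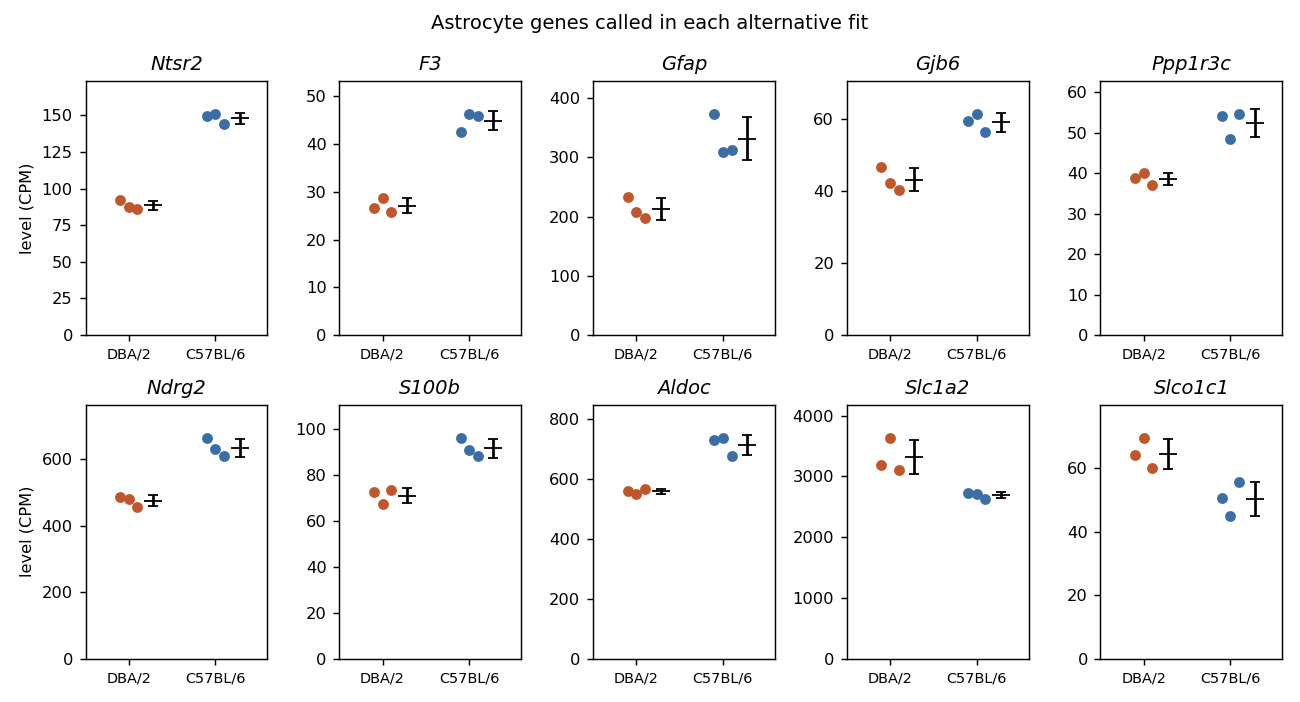
Level in CPM of the 10 astrocyte genes called in each alternative fit, DBA/2 on the left and C57BL/6 on the right of each panel, with points for libraries and bars for the mean and SD. Ntsr2 averages 88.5 ± 3.18 CPM in DBA/2 and 148 ± 3.76 CPM in C57BL/6, and Slc1a2 3314 ± 281 CPM in DBA/2 and 2689 ± 50.1 CPM in C57BL/6.

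Abundance per length spread the 33 genes over a wide range. On mean FPKM, Cst3 was the highest, at 679 in DBA/2 and 613 in C57BL/6, followed by Apoe at 620.3 in DBA/2 and 599.5 in C57BL/6 and Sparcl1 at 517 in DBA/2 and 557 in C57BL/6. Ndrg2, Clu, Slc1a2 and Aldoc came next. The order of these 4 was not the same in the strains: Slc1a2 stood at 254 FPKM in DBA/2 against 203 in C57BL/6, and Ndrg2 at 221 in DBA/2 against 291 in C57BL/6. Slc1a2 was therefore the highest of the 4 in DBA/2 and the lowest of the 4 in C57BL/6. Per length the least abundant member was Gpc5 in DBA/2, at 7.95 FPKM against 9.75 FPKM in C57BL/6, and Sox9 in C57BL/6, with 8.58 FPKM in DBA/2 and 9.29 FPKM in C57BL/6. Genes with large falls were found both among abundant members, such as Ndrg2 and Aldoc, and among scarce ones, such as F3.

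The astrocyte genes did not all move together, so their sum hid most of the difference. The summed level of the 33 genes was 12177, 12366 and 11675 CPM in DBA/2 and 12712, 12246 and 11839.9 CPM in C57BL/6, with overlap and a log2 difference of -0.02. Slc1a2 made up 27.4 ± 1.72% of the sum in DBA/2 and 21.9 ± 0.419% in C57BL/6 (SD, n = 3 each). Without the 3 most abundant members by CPM, Slc1a2, Sparcl1 and Apoe, the sum was 6073, 5927 and 5802 CPM in DBA/2 and 6917, 6577 and 6395 CPM in C57BL/6. It then no longer overlapped, with a log2 difference of -0.16. Within strains the members also tended to follow their library. C57BL/6 replicate 1 was the highest library of its strain for 23 of the 33 genes, against 33.4% of all tested genes. DBA/2 replicate 3 was the lowest of its strain for 21 of the 33, against 34.3% of all tested genes.

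**Figure D4:**
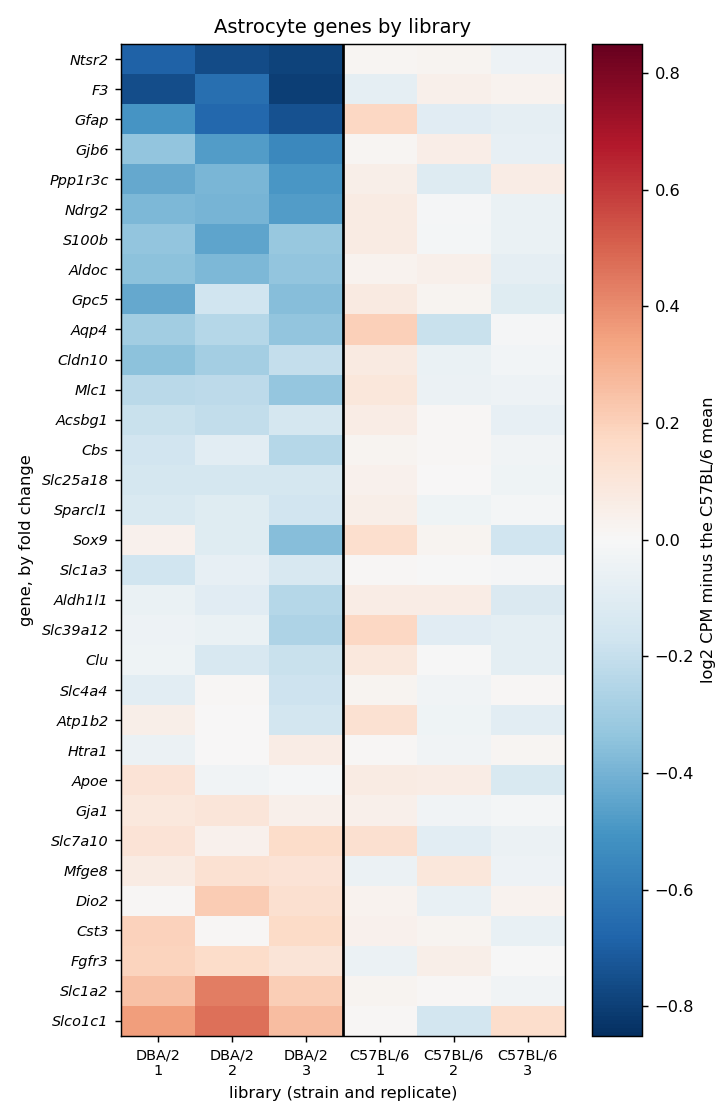
Heat map of the 33 astrocyte genes, ordered by fold change, in the 3 DBA/2 libraries on the left and the 3 C57BL/6 libraries on the right. Colour gives log2 CPM minus the C57BL/6 mean of the gene. The genes with the largest falls, Ntsr2 to Aldoc, are below the C57BL/6 mean in all 3 DBA/2 libraries, whereas Slc1a2 and Slco1c1 are above it in all 3.

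Of 38 other genes enriched in astrocytes, 14 were lower and 3 higher in DBA/2, and the 14 became 9 without C57BL/6 replicate 1. Over all tested genes 13.7% were lower and 9.09% higher, which is the background for every list from here on. The 38 genes summed to 4403, 4450 and 4276 CPM in DBA/2 and 6011, 5752 and 5582 CPM in C57BL/6, without overlap. Etnppl, a phospholyase of lipid metabolism, averaged 4.78 ± 1.27 CPM in DBA/2 and 27 ± 1.45 CPM in C57BL/6 (SD, n = 3 each), with a log2 fold change of -2.49 ± 0.13 (SE; edgeR, adjusted p = 1.64e-12). Glul, glutamine synthetase, which turns the glutamate taken up by the 2 transporters into glutamine, had 578, 609.6 and 579.7 CPM in DBA/2 and 1423, 1397 and 1334 CPM in C57BL/6. It was far lower in each DBA/2 library than in any C57BL/6 library, with a log2 fold change of -1.23 ± 0.05 (SE; edgeR, adjusted p = 6.97e-16). Reads of Glul could be shared with a processed pseudogene, Glns-ps1, and the sum of both gave -1.22. Dbi, an acyl-CoA binding protein that astrocytes release, had a log2 fold change of -0.78 ± 0.06 (SE; edgeR, adjusted p = 1.71e-10). The log2 fold changes of Etnppl and Glul were beyond those of all 33 genes.

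Regulators of astrocyte fate and signalling split evenly, with 5 of 24 lower and 5 higher. Rbpj, the DNA-binding partner of Notch, had a log2 fold change of -1.45 ± 0.09 (SE; edgeR, adjusted p = 1.74e-11), but of -0.85 when summed with the near-identical Rbpsuh-rs3, so its size is uncertain. Id3 and Id2, inhibitors of basic helix-loop-helix factors, had -0.71 ± 0.08 and -0.48 ± 0.06 (SE; edgeR, adjusted p = 4.96e-07 and 4.39e-06). Since Gfap was lower, genes that increase in reactive astrocytes were counted too. Of 31 tested, 8 were lower and 3 higher in DBA/2, and 4 were lower without DBA/2 replicate 3. H2-D1, a class I antigen-presenting gene, averaged 15.8 ± 2.36 CPM in DBA/2 and 29.4 ± 2.68 CPM in C57BL/6 (SD, n = 3 each), and was called lower. How alignment to the C57BL/6J reference affected the H2-D1 counts of DBA/2 was not tested. Serpina3n, a protease inhibitor induced in reactive astrocytes, averaged 89.2 ± 2.24 CPM in DBA/2 and 55.3 ± 1.9 CPM in C57BL/6 (SD, n = 3 each). It was called higher, and Vim, the other filament gene of the list, was not called at 38.4 ± 2.3 CPM in DBA/2 and 36.7 ± 2.52 CPM in C57BL/6 (both were chosen after their values were seen). Lcn2 and B3gnt5 were called lower but had under 6 CPM in every library. Lcn2 lost its call without DBA/2 replicate 2 or C57BL/6 replicate 2 (adjusted p up to 0.102), and B3gnt5 without DBA/2 replicate 1 or 3 or C57BL/6 replicate 3 (up to 0.322, edgeR).

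In cholesterol synthesis and lipoprotein metabolism 7 of 18 genes were lower and 3 higher. Cyp51, an enzyme of cholesterol synthesis, had 42.4, 42.2 and 41.9 CPM in DBA/2 and 82.6, 78.7 and 85.1 CPM in C57BL/6, a log2 fold change of -0.96 ± 0.06 (SE; edgeR, adjusted p = 6.78e-12). Insig1, which holds back cholesterol synthesis when sterols are plentiful, had -0.49 ± 0.07 (SE; edgeR, adjusted p = 3.52e-05). Lpl, the lipase that releases fatty acids from lipoproteins, had the opposite direction, at 97.2 ± 6.67 CPM in DBA/2 and 45.3 ± 4.02 CPM in C57BL/6 (SD, n = 3 each; edgeR, adjusted p = 1.58e-11).

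Among 7 genes that respond to or carry thyroid hormone, Hr and Klf9, both induced by the hormone, were lower in DBA/2, with log2 fold changes of -0.55 ± 0.12 and -0.48 ± 0.05 (SE; edgeR, adjusted p = 0.00438 and 5.08e-08). The number called lower was 4 without DBA/2 replicate 3.

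Genes that mark astrocytes outside the telencephalon were lower in DBA/2, 3 of 3, and their libraries did not overlap. Agt, angiotensinogen, had 21.2, 22.1 and 19.2 CPM in DBA/2 and 44.9, 34.1 and 32.4 CPM in C57BL/6 (edgeR, adjusted p = 0.000152). Slc6a11, a GABA transporter, had 149, 160.1 and 142 CPM in DBA/2 and 252, 207 and 217 CPM in C57BL/6 (edgeR, adjusted p = 1.68e-05). Slc6a9, a glycine transporter, was also lower, with a log2 fold change of -0.35 ± 0.08 (SE; edgeR, adjusted p = 0.00228). For Agt and Slc6a11, C57BL/6 replicate 1 was the highest library.

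Markers of neighbouring thalamus and habenula moved the same way. Their 12 genes summed to 293 to 373 CPM in DBA/2 and 514 to 720.0 CPM in C57BL/6. All 12 had lower values in each DBA/2 library than in any C57BL/6 library, against 20.1% of all tested genes. Of the 12, 8 were called lower (5 without DBA/2 replicate 2), against 13.7% of all tested genes. The lowest thalamic sum was in DBA/2 replicate 3 and the highest in C57BL/6 replicate 1. Within their strains, these libraries were lowest and highest, respectively, for most of the 33 astrocyte genes. Mature oligodendrocyte markers summed to 4832 to 6518 CPM in DBA/2 and 7180.0 to 8956 CPM in C57BL/6, with the same libraries at the ends. The order within C57BL/6 did not match throughout. Its lowest thalamic and oligodendrocyte sums were in replicate 2, whereas replicate 3 was lowest for 17 of the 33 astrocyte genes. Of the 15 mature oligodendrocyte markers 6 were called lower, 3 without DBA/2 replicate 2 and 12 without DBA/2 replicate 3. Oligodendrocyte precursor markers summed to 377 to 405 CPM in DBA/2 and 441 to 485 CPM in C57BL/6, with 5 of 8 lower. Microglial markers summed to 388 to 424 CPM in DBA/2 and 501 to 529 CPM in C57BL/6, with 9 of 15 lower and 1 higher. No marker in these lists was at 0 in all libraries, and the part of other cells or of neighbouring tissue in the astrocyte gene differences was not tested.

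Neuronal markers summed to 12833 to 13120.1 CPM in DBA/2 and 12291 to 12972 CPM in C57BL/6, with overlap. Of these, 3 of 14 (21.4%) were called lower, against 13.7% of all tested genes. Choroid plexus and ependymal markers summed to 1253 to 2743 CPM in DBA/2 and 702 to 1541 CPM in C57BL/6, again with overlap. Of these, 2 of 12 (16.7%) were called lower (1 without DBA/2 replicate 3 or C57BL/6 replicate 1 or 3). Most of the list ran the other way, with 7 log2 fold changes above 0, 5 below and a median of 0.28. Of 10 markers of adult neural stem cells, which share many genes with astrocytes, 3 were called lower.

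**Figure D5:**
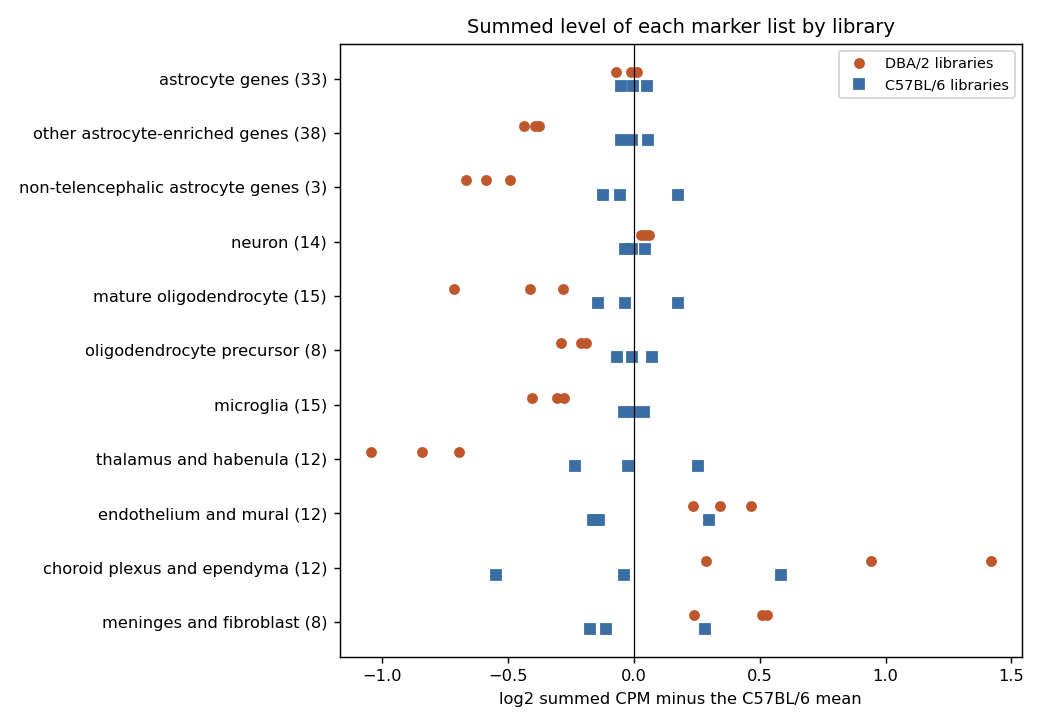
Log2 summed CPM of each marker list in each library, minus the C57BL/6 mean of the list, with the number of genes in parentheses. The sum of the 33 astrocyte genes overlaps between strains. That of the 38 other astrocyte-enriched genes does not, at 4276 to 4450 CPM in DBA/2 and 5582 to 6011 CPM in C57BL/6. The thalamus and habenula sum is 293 to 373 CPM in DBA/2 and 514 to 720.0 CPM in C57BL/6.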

How the data were processed

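RNA was sequenced from hippocampus with 3 libraries per strain, DBA/2 and C57BL/6. Strain was taken from the strain label. Per the submitters' processing notes, the tools were HISAT2 2.0.1, Trimmomatic 0.30 and Cufflinks 2.2.1 and the build was GRCm38. Which program counted the reads, with which annotation and with or without strand, is not given in the sources used here. GRCm38 comes from C57BL/6J, and how alignment to it affected DBA/2 counts was not tested.

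The authors deposited whole-number counts for 51912 genes, of which 31719 had a count. The authors also deposited FPKM values, and these matched the counts scaled by exonic length and library total, within 0.005. The deposited exonic length was used directly only for that check. Through the FPKM it also enters the 2 ratios and the ranking of abundance per length. Another 12 per-sample columns fit no sample of the labels and were not used. Total counts were 13839366 to 16912153 in DBA/2 and 13867280 to 20185683 in C57BL/6. The strains separated on the first principal component (70.5% of the variance). GENCODE M21 (GRCm38), which holds 99.6% of the gene IDs, gave coordinates, counted from 1.

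Counts were tested with edgeR 4.0.16 (quasi-likelihood, robust, TMM factors, filterByExpr) in R 4.3.3, with Benjamini-Hochberg adjustment over 17517 genes and a call at an adjusted p under 0.05. Fold changes are DBA/2 over C57BL/6. The script was tested on simulated counts. CPM uses TMM factors. Transcripts with 95% identity over at least 200 bases and 0.5 of the shorter transcript were sought with BLAST 2.17.0, and no member had such a copy elsewhere. Exons of 7 members overlap another gene. Alternatives were DESeq2 1.42.0 size factors and Wald test, library size alone, other filters on low counts, limma-voom and limma 3.58.1 on log2(FPKM + 1) and log2(FPKM + 0.1), stricter thresholds, the replicate number as a block, Xist as a covariate, leaving out libraries with at least 1 CPM of Xist, and leaving out each library.

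The members and gene lists were chosen with earlier results of these data known. All 33 members are named, and from each other list at most 3 called genes, by size of change, or its most abundant gene where none is called. No sample was left out. A few genes that this rule takes from the other lists are not reported here.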

Additional observations from a re-analysis of the deposited data

How the results depend on the processing

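The direction of all 18 called genes was kept under every alternative run. Calls over all genes numbered 4000, of which 912 also had an absolute log2 fold change of at least 1, and then 0 astrocyte genes were lower and 0 higher. With Xist as a covariate 2026 genes were called, with 8 astrocyte genes lower and 2 higher, and without the libraries holding Xist 2012 genes, with 9 lower and 2 higher (1 C57BL/6 library, assumed to vary like the DBA/2 ones). Leaving out each library in turn gave 11 to 14 lower and 2 to 3 higher. Scaling by library size alone gave 12 lower and 4 higher, and no scaling moved the median of all genes by more than 0.03 (log2). Without the 3 most abundant members the log2 difference of the summed level was -0.16, against -0.02. The sign changed for 3 genes that were not called. Atp1b2 (-0.03) was at 0.0072 with Xist as a covariate, at 0.0098 without the libraries holding Xist and at -0.078 to 0.036 with each library left out. Apoe (0.02) was at -0.034 with Xist as a covariate, at -0.031 without the libraries holding Xist and at -0.037 to 0.061 with each library left out. Htra1 (0.00) was at -0.020 to 0.035 with each library left out. The cause was not tested.

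The replicate number as a block gave 13 lower and 2 higher, losing Slc1a3, Fgfr3 and Sparcl1. Libraries that share a number did not deviate together (correlations 0.13, -0.08 and 0.00), and only those numbered 1 correlated best with each other, so the numbers do not pair them. The 14 lower genes among other astrocyte-enriched genes became 9 with the DESeq2 Wald test and with limma on FPKM, 7 with Xist as a covariate and 6 without the libraries holding Xist. Over the 17 alternative fits at the same threshold, the number lower ranged from 3 to 8 for reactive genes, 3 to 8 for cholesterol genes, 1 to 14 for mature oligodendrocyte, 2 to 5 for oligodendrocyte precursor, 5 to 10 for microglial, 3 to 11 for thalamic and 1 to 4 for stem cell markers. The smallest called differences, in Slc1a3 and Sparcl1, rested on most single libraries, and 3 libraries per strain limit what smaller differences can be called.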
